A study of Homo sapiens with 12 samples.

Results

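Collagen chain genes were described here in MDA-MB-231 cells, an established human breast cancer cell line, after depletion of HDAC5 or of LSD1. A gene was a member if its official symbol read COL, a number, A, a number, and if the array held a probe set annotated to it alone. The RefSeq table lists 44 genes with such symbols, of which 32 were measured, among 11963 genes in all. The 32 members carried 73 probe sets. A gene was read from its brightest probe set, by the mean over all arrays, and the further probe sets, present for 22 members, served as a check. By the class of molecule they build, 9 members were fibrillar, 6 of basement membrane, 3 of beaded filaments, 7 of the FACIT kind (collagens that sit on the surface of fibrils), 3 of short-chain networks, 2 multiplexins, 1 transmembrane and 1 of anchoring fibrils. The 12 genes without a single-symbol probe set were COL6A5, COL6A6, COL12A1, COL17A1, COL20A1 and COL22A1 to COL28A1, and they were not analysed here.

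Cells were transduced with lentiviral particles that carried a short hairpin RNA (shRNA), and their RNA was read on Affymetrix 3′ expression arrays, with 1 array per sample. There were 4 groups of 3 biological replicates: HDAC5 shRNA and its scramble shRNA arrays, and LSD1 shRNA and its own scramble shRNA arrays, which the labels letter A, B and C. HDAC5 belongs to the class IIa histone deacetylases, and LSD1, the product of KDM1A, is a demethylase of histone lysines. All 12 samples are of the same line, and all carry an shRNA vector, the controls included. The sources used here do not give the clonality of the transduced cells, their selection or the time from transduction to harvest.

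Collagen chains wind around each other into stiff helices that are secreted and then built into the extracellular matrix. Fibrillar collagens (types I, II, III, V and XI) form the banded fibrils of connective tissue, and type IV collagen forms the sheet under epithelium and endothelium. Type VI collagen makes the beaded filaments that link cells to both. Most fibrillar collagen in a breast tumour is made by fibroblasts, while carcinoma cells themselves are better known for basement membrane and cell-surface collagens. Before secretion, chains are hydroxylated and folded in the endoplasmic reticulum, trimmed by proteases and cross-linked by lysyl oxidases.

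Values are the deposited log2 expression values, so a difference of 1 is a 2-fold change. A gene was called changed when limma's moderated test gave a Benjamini-Hochberg adjusted p under 0.05 over all 11963 genes, or, for a further probe set, over 19064 probe sets. Changes are shRNA minus scramble with their standard error (SE), and spreads are SDs over 3 arrays. "Dim" stands for a value below the lower quartile of all probe sets on that array, where background makes up much of the signal. That quartile was 4.59 to 4.65 on HDAC5 shRNA arrays and 4.63 to 4.64 on their scramble arrays, against 5.24 to 5.27 on LSD1 shRNA arrays and 5.18 to 5.23 on theirs. It is a marker of low signal chosen here, not a detection call.

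The hairpins lowered their targets. HDAC5 read 6.17, 6.19 and 6.50 on the HDAC5 shRNA arrays, against 7.56, 7.42 and 7.22 on scramble arrays (change -1.11, SE 0.11). KDM1A read 6.48, 6.81 and 6.60 with LSD1 shRNA, against 9.61, 9.76 and 9.78 with scramble (change -3.08, SE 0.11). All 4 genes listed as high in the line (VIM, CD44, AXL and CAV1) lay above the lower quartile on all 12 arrays. Of 6 listed as low, PGR was dim on all 12 arrays and CDH1 on all but the LSD1 shRNA arrays, and ESR1, ERBB2, EPCAM and GATA3 were above the quartile throughout. Replicates were tighter in the HDAC5 experiment, where a probe set's median SD was 0.070 on HDAC5 shRNA arrays and 0.069 on scramble arrays, than in the LSD1 experiment (0.127 with LSD1 shRNA, 0.106 with scramble). Smaller changes could therefore be called with HDAC5 shRNA. In both experiments 12 of the 32 members were dim on all 6 arrays. Of these, 9 were dim on all 12 arrays: COL2A1, COL4A4, COL4A5, COL4A6, COL8A1, COL8A2, COL10A1, COL19A1 and COL21A1. Another 13 members lay above the quartile on all 12 arrays. Some probe sets had exactly the same value on at least 2 arrays of an experiment. In the HDAC5 experiment these were 37 of the members' 73, a larger share than the 37.2% of all probe sets. In the LSD1 experiment they were 35 of the 73, again a larger share than the 33.3% of all. The SDs of such members can therefore be too small.

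With LSD1 shRNA, a pair of fibrillar collagens with low signal in scramble cells rose: COL3A1 became bright, and COL5A2 was 3.91-fold higher. COL15A1 also rose, by a smaller amount and within the dim range, and COL6A2 fell. Those were the 4 members called, 3 up and 1 down of 32 (12.5%), beside 4.92% of all genes, or 2.93% for increases and 2.0% for decreases. All 3 increases exceeded 2-fold, which is 9.38% of members beside 1.37% of all genes called at that size. The median change over the 32 members was -0.0092, beside 0.0069 over all genes, with 14 members higher and 18 lower. The arrays of both groups were apart without overlap for 7 members (21.9%), beside 27.0% of all genes. The other 28 members changed by -0.74 to 0.55 without passing the threshold.

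With HDAC5 shRNA no collagen was called at 2-fold or more (beside 3.47% of all genes), and 8 of the 9 members called were lower. The decreases were in the basement membrane chains COL4A1, COL4A2 and COL4A5, the beaded filament chains COL6A2 and COL6A3, and COL13A1, COL16A1 and COL18A1. COL15A1 was the member that rose. The 9 called make up 28.1% of members, beside 44.5% of all genes. Decreases made up 25.0% of members beside 23.2% of all genes, a share near the background, and increases 3.12% beside 21.3%. The median change over the members was -0.09, beside -0.02 over all genes, with 24 lower and 8 higher. Arrays did not overlap for 13 members (40.6%), beside 50.8% of all genes. The 23 members not called changed by -0.25 to 0.20.

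**Figure D1:**
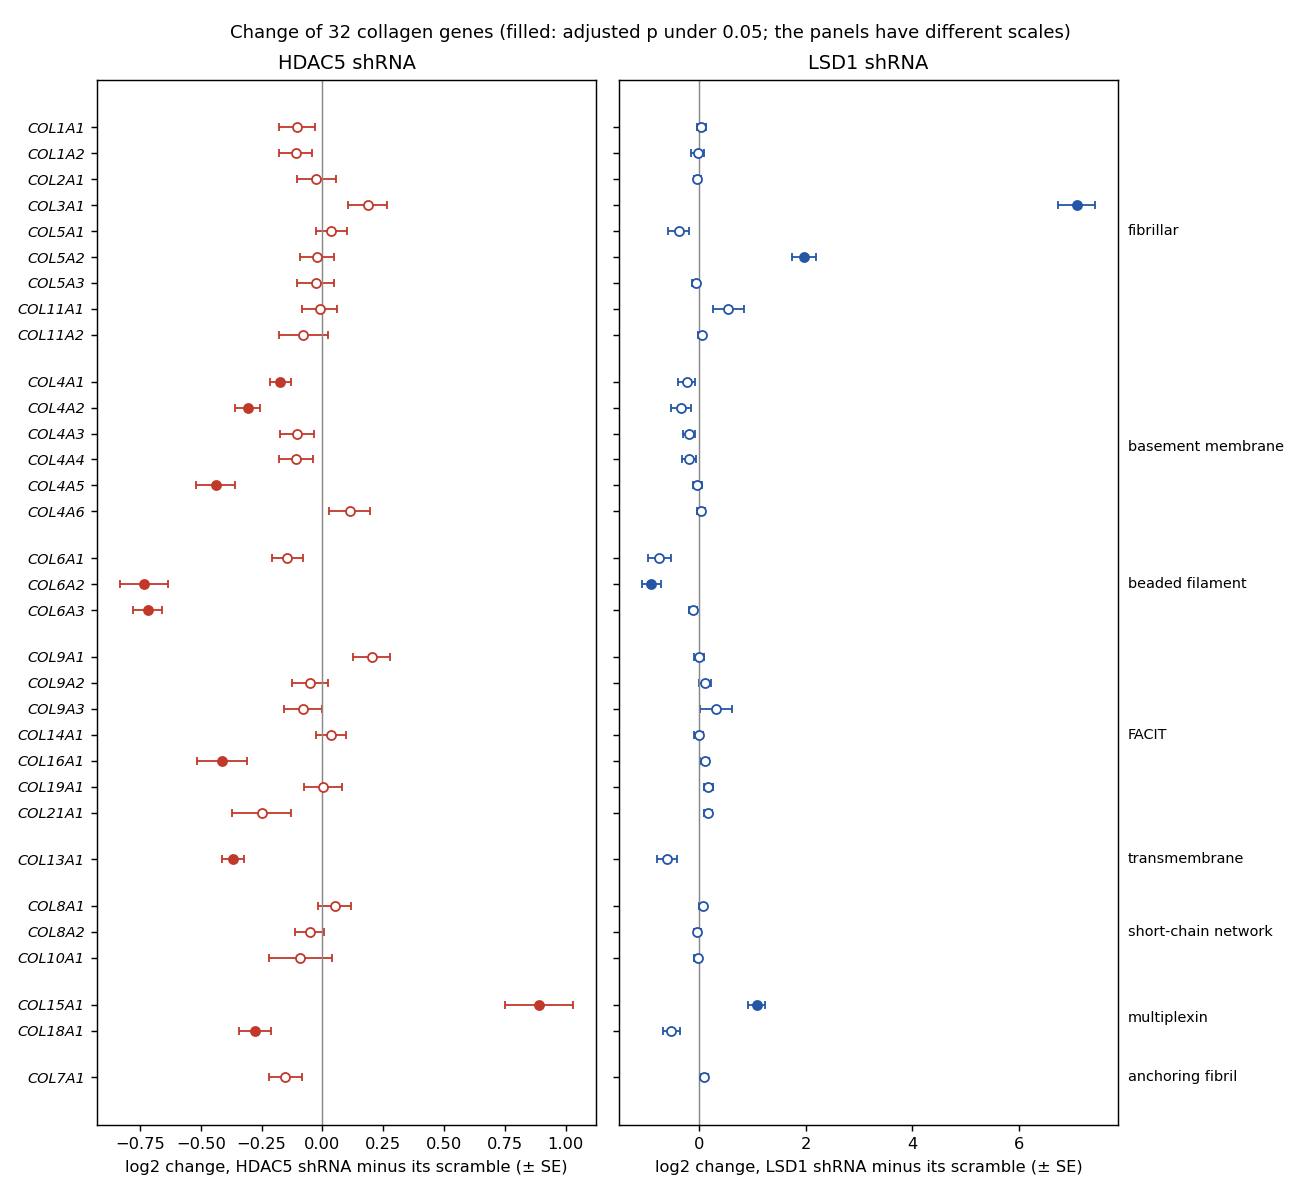
Log2 change (shRNA minus scramble; bars are ± SE from limma, filled points have adjusted p under 0.05) of the 32 collagen genes ordered by class, for HDAC5 shRNA and LSD1 shRNA against their own scramble arrays, on different scales. COL3A1 with LSD1 shRNA, at 7.08, stands far to the right of all others, while with HDAC5 shRNA all members lie between -0.73 and 0.89.

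Among fibrillar genes, COL3A1 showed the largest change of any member. It encodes the chain of type III collagen, which runs with type I collagen in elastic tissues, skin and healing wounds. On LSD1 shRNA arrays 1, 2 and 3 it read 11.46, 11.21 and 11.51, against 3.47, 4.68 and 4.80 on lettered scramble arrays A to C. All 3 LSD1 shRNA arrays were thus bright and close together, and all 3 scramble arrays were dim. The means were 11.39 ± 0.16 and 4.32 ± 0.74 (SD, n = 3 each), a change of 7.08 (SE 0.34, limma adjusted p = 0.000273, 95% confidence interval 6.27 to 7.89), or 135-fold. Because the scramble values are dim, that size is not exact; the LSD1 shRNA mean lay 6.18 above the lower quartile of the scramble arrays. With HDAC5 shRNA the same probe set read 3.85, 3.82 and 3.83, against 3.66, 3.49 and 3.79 on scramble arrays, so it was dim on all 6 and was not called (change 0.19, adjusted p = 0.085). Of 3 further probe sets, 2 rose with LSD1 shRNA, by 6.49 (adjusted p = 3.15e-05) and 5.04 (adjusted p = 2.41e-06). The third, at 0.0005, was dim on all 12 arrays and did not pass the threshold, and the mean over the gene's probe sets changed by 4.65.

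COL5A2 encodes the second chain of type V collagen, a minor fibrillar collagen that is built into type I and III fibrils and sets their width. It read 6.78, 6.86 and 6.86 on LSD1 shRNA arrays, against 5.42, 4.46 and 4.72 on scramble A, B and C. The shRNA arrays were within 0.1 of each other and above every scramble array, of which B and C were dim. The change was 1.97 (SE 0.23, limma adjusted p = 0.00779), and without scramble array C it was not called (adjusted p = 0.0576). A further probe set rose by 1.24 (adjusted p = 0.00741). With HDAC5 shRNA, COL5A2 read 4.80, 4.93 and 4.93, against 4.85, 4.92 and 4.95 with scramble (change -0.02, SE 0.07).

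COL3A1 and COL5A2 lie next to each other on chromosome 2. Their nearest measured neighbours on either side, GULP1 and ASNSD1, changed by 0.13 (SE 0.13) and 0.05 (SE 0.12) with LSD1 shRNA and were not called. Other fibrillar chains were not called with LSD1 shRNA. COL5A1, the main chain of type V collagen, differed by -0.38 with LSD1 shRNA (SE 0.20, adjusted p = 0.329), and of its further probe sets 1 fell, by -0.40 (adjusted p = 0.0461), and the other, at -0.50, did not pass (adjusted p = 0.082). COL1A1 and COL1A2, the chains of type I collagen, differed by 0.05 (SE 0.08) and -0.02 (SE 0.12), and their further probe sets by -0.010 to 0.12 and by 0.0076. COL11A1, a chain of the type XI collagen of cartilage fibrils, differed by 0.55 (SE 0.29, adjusted p = 0.326). The second probe set of COL11A1 did rise, by 1.15 (adjusted p = 0.0421). Both COL11A1 probe sets were dim on every array of the LSD1 experiment except LSD1 shRNA array 2. COL5A1, COL1A1, COL1A2 and COL11A1 were picked for mention once their values had been seen. None of the 9 fibrillar genes was called with HDAC5 shRNA, and their changes ran from -0.11 to 0.19. Of 3 further probe sets of COL1A1, 1 rose with HDAC5 shRNA (0.38, adjusted p = 0.0146), against -0.10 for the brightest one, and the single further one of COL1A2 was at -0.062.

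Fibroblasts are a rich source of type III collagen, so their markers stand beside these increases. Of 9 fibroblast markers 1 rose with LSD1 shRNA and none fell, beside 2.93% of all genes higher and 2.0% lower. It was LUM, the gene of the fibril-binding proteoglycan lumican, at 4.15 against 2.61 with scramble (change 1.54, SE 0.23, adjusted p = 0.019). LUM was dim on every array. Summed on the linear scale, the 9 markers came to 353 to 368 signal units on LSD1 shRNA arrays and 338 to 344 on scramble arrays. Of the 9, POSTN, FAP, ASPN and LUM were dim on all 12 arrays, DPT on 6, DCN and PDGFRA on 1 each, and PDGFRB and THY1 on 0. Beside 4.92% of all genes called with LSD1 shRNA, no marker of endothelium (6 measured) or of blood cells (4 of 5 measured) was called. Their part in the changes of COL3A1 and COL5A2 was not tested.

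**Figure D2:**
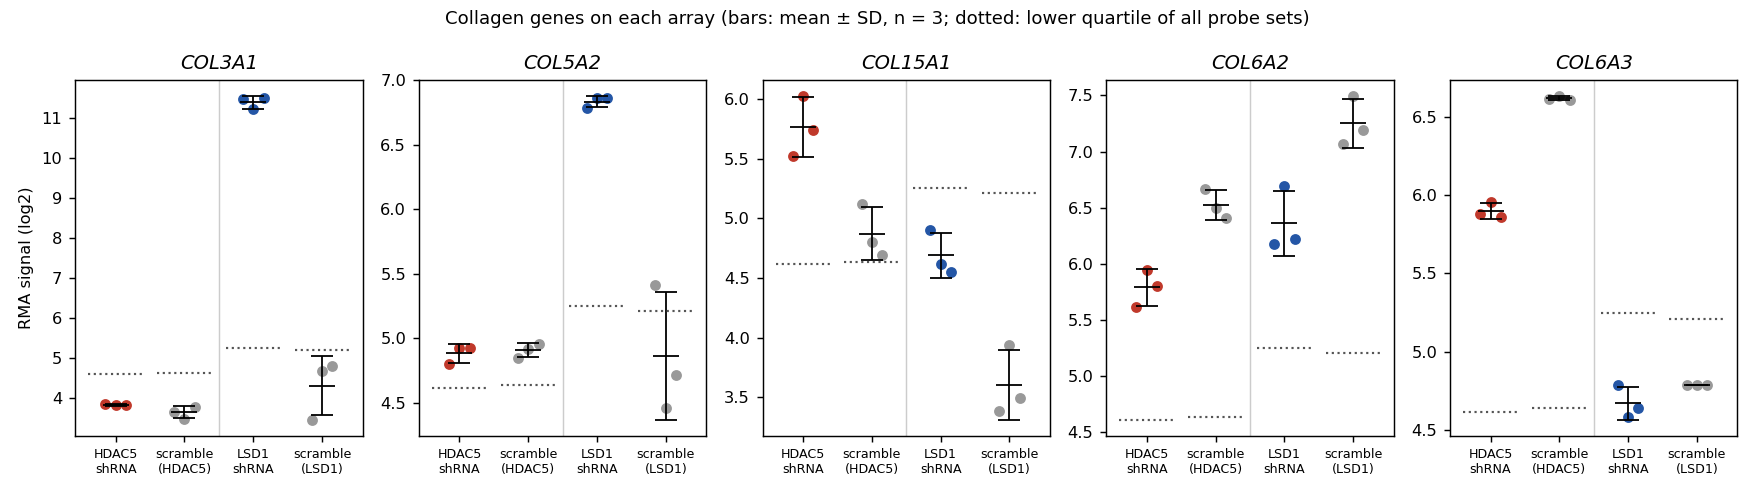
Deposited log2 value on each of the 12 arrays (points; bars are mean ± SD, n = 3) for the members called by at least 1.5-fold with either shRNA; dotted lines are the lower quartile of all probe sets, averaged over each group's arrays. COL3A1 sits at 11.21 to 11.51 on LSD1 shRNA arrays and at 3.47 to 4.80 on their scramble arrays, and COL6A3 is apart between groups in the HDAC5 experiment alone.

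Among basement membrane collagens, the widely made chains COL4A1 and COL4A2 were above the lower quartile on all 12 arrays. COL4A2 was lower with HDAC5 shRNA, at 9.97, 10.09 and 9.99, against 10.40, 10.31 and 10.26 with scramble (change -0.31, SE 0.05, limma adjusted p = 0.00058). COL4A1 was lower as well, at 9.94, 10.03 and 9.98, against 10.20, 10.11 and 10.17 (change -0.17, SE 0.04, adjusted p = 0.00796). For both genes the groups did not overlap. A further probe set of COL4A1 fell by -0.25 (adjusted p = 0.0324), while that of COL4A2, at -0.16, did not pass (adjusted p = 0.17). With LSD1 shRNA neither was called, at -0.23 (SE 0.16) for COL4A1 and -0.34 (SE 0.19) for COL4A2. There the shRNA arrays were spread widely: COL4A1 read 10.18, 10.54 and 9.89, against 10.40, 10.48 and 10.41 with scramble. In a fit of all 12 arrays with 1 shared spread, the decreases of COL4A1 and COL4A2 with HDAC5 shRNA were not called (adjusted p = 0.341 and 0.146).

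COL4A1 and COL4A2 are transcribed away from each other, and in RefSeq (GRCh38.p14) their starts lie 127 bases apart, so the 300-base promoter windows share 226 bases. The window of COL4A2 is shown because it covers the start region of this pair of genes, which both fell with HDAC5 shRNA. It is chr13:110307034-110307333, plus strand, from 250 bases before the start to 50 after, with the letters of a GC box, GGGCGG, and of a CAAT box, given as CCAAT, in capitals on either strand.
COL4A2: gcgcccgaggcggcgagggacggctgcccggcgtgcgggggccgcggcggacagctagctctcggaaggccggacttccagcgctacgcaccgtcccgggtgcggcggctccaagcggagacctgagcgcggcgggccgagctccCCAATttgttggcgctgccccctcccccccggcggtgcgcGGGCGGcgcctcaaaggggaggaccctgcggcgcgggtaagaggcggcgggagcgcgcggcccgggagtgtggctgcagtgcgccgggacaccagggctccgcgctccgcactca
It holds 1 GGGCGG and 1 CCAAT, and no TATAAA. Over 35116 RefSeq windows of the same length, 45.0% hold GGGCGG, 34.6% hold CCAAT and 11.5% hold TATAAA, on either strand. A match is a description of letters and not a binding site.

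COL4A4, COL4A5 and COL4A6 were dim on all 12 arrays. COL4A5, a chain of kidney and other specialised basement membranes, was lower with HDAC5 shRNA, at 3.39 against 3.83 (change -0.44, SE 0.08, adjusted p = 0.00134), within the dim range. COL4A6, which lies head to head with COL4A5 on the X chromosome, was not called (0.11, SE 0.08). COL4A3, another kidney chain, was not called with either shRNA by its brighter probe set (-0.10 and -0.18), yet 1 of its 6 further probe sets fell with both, by -0.80 with HDAC5 shRNA (adjusted p = 8.03e-06) and by -0.49 with LSD1 shRNA (adjusted p = 0.0424). That further probe set was dim on all 12 arrays. The other 5 were not called and ran from -0.13 to 0.085 with HDAC5 shRNA and from -0.044 to 0.0073 with LSD1 shRNA. Neither of the 2 further probe sets of COL4A6 was called. COL4A1, COL4A3 and COL4A6 were named after their values were seen. No type IV gene was called with LSD1 shRNA, beside 4.92% of all genes.

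The beaded filament chains COL6A1, COL6A2 and COL6A3 assemble into type VI collagen in equal parts, and 2 of these genes were called with HDAC5 shRNA and 1 with LSD1 shRNA. COL6A2 was the only member called lower with both shRNAs. With HDAC5 shRNA it read 5.62, 5.95 and 5.80, against 6.67, 6.50 and 6.41 with scramble. The groups were apart, with a change of -0.73 (SE 0.10, limma adjusted p = 0.00015). With LSD1 shRNA it read 6.17, 6.70 and 6.22, against 7.07, 7.50 and 7.19 on scramble A, B and C. These groups did not overlap either (change -0.89, SE 0.17, adjusted p = 0.0385). A further probe set fell by the same amount with HDAC5 shRNA (-0.73, adjusted p = 0.000137) but was not called with LSD1 shRNA (-0.18, adjusted p = 0.452). The call with LSD1 shRNA was lost with the mean of the probe sets (-0.53, adjusted p = 0.0742) and when any array but LSD1 shRNA 2 was left out (adjusted p up to 0.146).

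COL6A3, the largest of the type VI chains, was lower with HDAC5 shRNA, at 5.88, 5.96 and 5.86, against 6.61, 6.63 and 6.61 with scramble. Replicates were tight on both sides, and the change was -0.72 (SE 0.06, limma adjusted p = 6.37e-06). With LSD1 shRNA it read 4.79, 4.58 and 4.64, against 4.79, 4.79 and 4.79, with exact repeats among these values, and was dim on all 6 arrays (change -0.12, SE 0.07). COL6A1, which sits beside COL6A2 on chromosome 21, was not called with either shRNA. With LSD1 shRNA it read 8.47, 8.94 and 8.29, against 8.97, 9.41 and 9.56, without overlap (change -0.74, SE 0.22, adjusted p = 0.107). Its 7 further probe sets did not show this difference, with changes of -0.14 to 0.11, and the mean of the probe sets changed by -0.11 (adjusted p = 0.417). With HDAC5 shRNA it differed by -0.15 (SE 0.06, adjusted p = 0.0936), and the further probe sets by -0.084 to 0.090. COL6A1 was named after its values were seen.

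The promoter window of COL6A2 is printed because the gene was called lower with both shRNAs. It is chr21:46097862-46098161, plus strand (RefSeq, GRCh38.p14), with GGGCGG or its reverse complement and TATAAA in capitals.
COL6A2: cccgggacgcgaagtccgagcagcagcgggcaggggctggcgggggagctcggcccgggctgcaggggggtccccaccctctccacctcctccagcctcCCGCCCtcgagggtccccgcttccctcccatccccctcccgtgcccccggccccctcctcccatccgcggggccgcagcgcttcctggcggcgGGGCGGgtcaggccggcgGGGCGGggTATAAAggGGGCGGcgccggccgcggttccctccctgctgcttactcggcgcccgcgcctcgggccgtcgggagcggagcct
It holds 4 GGGCGG, counting both strands, and 1 TATAAA, and no CCAAT.

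Markers of other cells and RNA quality in the HDAC5 experiment stand beside these values. Of 9 fibroblast markers 2 fell with HDAC5 shRNA, a share near the 23.2% of all genes that did, and none rose. Their summed linear signal was 188 to 202 units on HDAC5 shRNA arrays and 231 to 240 on scramble arrays. Of 6 endothelial markers 2 fell (207 to 224 units against 269 to 282 with scramble), and none of 4 blood markers was called. For ACTB, the excess of 3′ over 5′ control signal, which grows as RNA degrades, was 0.68 ± 0.08 on HDAC5 shRNA arrays and 0.90 ± 0.06 on scramble arrays, and 1.43 ± 0.12 on LSD1 shRNA arrays and 1.30 ± 0.06 on scramble arrays (SD, n = 3 each). For GAPDH it was close to 0 throughout, at 0.017 with HDAC5 shRNA and 0.034 with scramble, and at 0.042 with LSD1 shRNA and 0.0015 with scramble. Whether any of these bears on the collagen values was not tested. Fewer cells that make a transcript and less of it per cell cannot be told apart in such bulk samples.

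The multiplexins, collagens of the basement membrane zone whose ends can be cleaved into endostatin-like fragments, moved in opposite directions with HDAC5 shRNA. COL15A1 rose: it read 5.52, 6.02 and 5.74 with HDAC5 shRNA, against 5.12, 4.80 and 4.69 with scramble. No arrays overlapped, and none was dim (change 0.89, SE 0.14, limma adjusted p = 0.000416). With LSD1 shRNA it read 4.90, 4.61 and 4.55, against 3.38, 3.94 and 3.50 on scramble A, B and C. That change, 1.08 (SE 0.16, adjusted p = 0.019), was without overlap but dim on all 6 arrays. It was not called without LSD1 shRNA array 1 or 3 or without scramble array A or C (adjusted p = 0.055 to 0.107). COL15A1 has no further probe set. Its relative COL18A1, the source of endostatin, was lower with HDAC5 shRNA, at 7.17, 7.06 and 7.17, against 7.49, 7.41 and 7.33 (change -0.28, SE 0.07, adjusted p = 0.00589). A further probe set of COL18A1 fell by -0.46 (adjusted p = 0.00169). With LSD1 shRNA, COL18A1 read 7.63, 7.60 and 7.12, against 8.07, 7.99 and 7.83, without overlap but not called (-0.52, SE 0.16, adjusted p = 0.117), and the further probe set differed by 0.12. The decrease of COL18A1 with HDAC5 shRNA was not called in the fit of all 12 arrays (adjusted p = 0.123). COL18A1 was named after its values were seen.

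The promoter window of COL15A1 is shown as that of the member called higher with both shRNAs. It is chr9:98943657-98943956, plus strand (RefSeq, GRCh38.p14), with GGGCGG in capitals.
COL15A1: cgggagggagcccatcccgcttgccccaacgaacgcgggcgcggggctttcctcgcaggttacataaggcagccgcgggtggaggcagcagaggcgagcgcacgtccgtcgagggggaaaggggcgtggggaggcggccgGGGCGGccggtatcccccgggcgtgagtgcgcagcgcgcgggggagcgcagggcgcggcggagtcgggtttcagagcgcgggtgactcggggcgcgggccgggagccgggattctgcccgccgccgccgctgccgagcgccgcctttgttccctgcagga
It holds 1 GGGCGG and neither CCAAT nor TATAAA. RefSeq windows were at hand for 23 of the 32 members, 34 windows in all since some genes have several starts. Of the 34 windows, 19 held GGGCGG, 11 CCAAT and 6 TATAAA, on either strand. A binding motif of the MEF2 factors, the classical partners of class IIa deacetylases, occurred in 2 of the 34 (of COL10A1 and COL13A1) and in 2.99% of all windows.

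The transmembrane collagen COL13A1, a cell-surface chain found at adhesion sites, was bright on all 12 arrays. It read 12.16, 12.31 and 12.18 with HDAC5 shRNA, against 12.59, 12.53 and 12.64 with scramble. The groups were apart by a small step (change -0.37, SE 0.05, limma adjusted p = 8.42e-05), and both further probe sets were also called (-0.51 and -0.48). In the fit of all 12 arrays the call was lost (adjusted p = 0.0857). With LSD1 shRNA, COL13A1 read 11.42, 11.81 and 11.33, against 11.73, 12.34 and 12.28 on scramble A, B and C. LSD1 shRNA array 2 lay above scramble array A, and the change was not called (-0.59, SE 0.19, adjusted p = 0.137), nor were those of the further probe sets (-0.57 and -0.43).

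**Figure D3:**
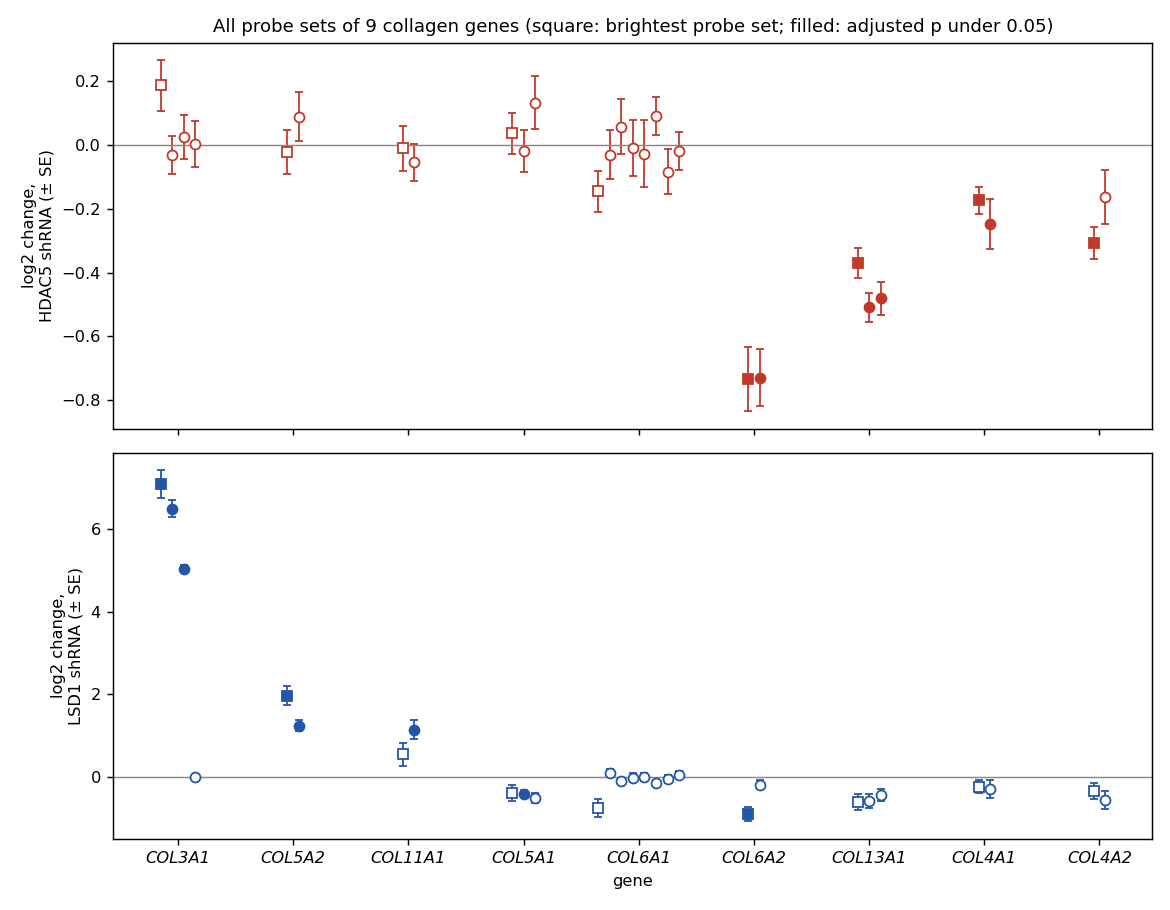
Log2 change (shRNA minus scramble) with ± SE, of every probe set of 9 collagen genes, for HDAC5 shRNA (upper panel) and LSD1 shRNA (lower panel, another scale); squares are the brightest probe set, circles further ones, and filled symbols have adjusted p under 0.05. COL3A1 shows 3 probe sets at 5.04 to 7.08 and 1 at 0.0005 with LSD1 shRNA, and COL6A2 shows both probe sets at -0.73 with HDAC5 shRNA.

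The remaining classes held 1 called member. Of 7 FACIT genes, COL16A1 was lower with HDAC5 shRNA, at 4.54, 4.71 and 4.38, against 4.80, 5.12 and 4.95 with scramble (change -0.41, SE 0.10, adjusted p = 0.00803), with shRNA arrays 1 and 3 dim. It encodes a fibril-associated chain of skin and muscle, and with LSD1 shRNA it was not called (0.11, SE 0.09). No other FACIT gene was called with either shRNA, the changes of all 7 running from -0.41 to 0.20 with HDAC5 shRNA and from -0.0016 to 0.33 with LSD1 shRNA. The short-chain network genes COL8A1, COL8A2 and COL10A1, of vessel wall, cornea and growth plate, were dim on all 12 arrays and were not called. COL7A1, the anchoring fibril chain under skin epithelium, differed by -0.15 (SE 0.07, adjusted p = 0.102) with HDAC5 shRNA and by 0.10 (SE 0.07, adjusted p = 0.484) with LSD1 shRNA, and is named as the sole gene of its class. Its further probe set was at -0.15 with HDAC5 shRNA and -0.14 with LSD1 shRNA, neither of them called. Of the further probe sets of members that were not called, 2 of 35 passed with HDAC5 shRNA and 3 of 36 with LSD1 shRNA. Over all genes, read from the brightest probe set, 44.5% and 4.92% were called. Those members were picked as not called in the same data, so the shares are not like for like. Among called members, 6 of 6 further probe sets with HDAC5 shRNA and 5 of 5 with LSD1 shRNA had the sign of the gene, and 5 and 3 of them passed. The 5 with LSD1 shRNA include the COL3A1 probe set at 0.0005, in effect no change. Among members not called, 21 of 35 and 24 of 36 further probe sets had the sign of the gene.

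The changes with the 2 shRNAs were then compared directly, as HDAC5 change minus LSD1 change in 1 fit of all 12 arrays. Of the 32 members 5 were called (15.6%), beside 31.8% of all genes, and each was more negative with HDAC5 shRNA. Over all genes 16.1% were called in that direction and 15.7% in the other. COL3A1 differed by -6.89 (SE 0.37, limma adjusted p = 5.77e-07) and COL5A2 by -1.99 (SE 0.25, adjusted p = 0.000167), both of them called higher with LSD1 shRNA alone. COL6A3 (-0.60, SE 0.09, adjusted p = 0.00051), COL16A1 (-0.52, SE 0.15, adjusted p = 0.0168) and COL4A5 (-0.41, SE 0.12, adjusted p = 0.0213) were the others, and each of these had been called lower with HDAC5 shRNA. COL6A3 was dim on all 6 arrays of the LSD1 experiment and COL4A5 on all 12 arrays. Low signal limits what the values of these 2 genes with LSD1 shRNA can show. COL4A5 was nonetheless called lower with HDAC5 shRNA while dim. COL15A1 and COL6A2 were called in the same direction with both shRNAs, and their changes were not called different: -0.19 for COL15A1 (95% confidence interval -0.72 to 0.33, adjusted p = 0.606) and 0.15 for COL6A2 (-0.31 to 0.62, adjusted p = 0.647). Those intervals still allow differences of 0.6 or more, and for the further probe set of COL6A2 the changes did differ (-0.55, SE 0.15, adjusted p = 0.016). Of the other members, 21 were called with neither shRNA. The comparisons share no arrays, but the shRNA also differs in hairpin, degree of knockdown and experiment, which cannot be told apart from the target.

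The genes of enzymes and chaperones that make collagen, and of its receptors, were counted in the same fits. Of 40 listed genes of collagen making 35 were measured. With HDAC5 shRNA 6 of them rose and 12 fell (median -0.05), beside 21.3% of all genes higher and 23.2% lower. LOXL1, a lysyl oxidase, fell furthest, by -1.0 (SE 0.13), and was the gene of this list past 2-fold. Other decreases were in LOX (-0.76), the main collagen cross-linking enzyme, and CREB3L1 (-0.78), an endoplasmic reticulum factor that activates type I collagen genes, while SPARC (0.69), a collagen-binding glycoprotein, and SERPINH1 (0.35), the collagen chaperone HSP47, rose. With LSD1 shRNA 2 of the 35 rose, SPARC (0.67) and the prolyl 3-hydroxylase gene P3H2 (0.39), and 1 fell, LOXL2 (-0.47). LOXL2 was also lower with HDAC5 shRNA, at 9.70, 9.75 and 9.78, against 10.23, 10.25 and 10.28 with scramble. Its changes with the 2 shRNAs were not called different (-0.04, adjusted p = 0.803). LOXL1 (1.47), LOX (0.87) and CREB3L1 (0.81) had positive values with LSD1 shRNA that did not pass the threshold. The differences between the shRNAs passed it for LOXL1 (-2.47, adjusted p = 0.000835), LOX (-1.63, adjusted p = 0.00185) and CREB3L1 (-1.58, adjusted p = 0.0022). Of 10 measured collagen receptor genes 6 fell and none rose with HDAC5 shRNA (all genes 23.2% lower), among them the endocytic receptor MRC2 (-0.87) and the integrin chain ITGA10 (-0.66), and none was called with LSD1 shRNA. Of 7 collagen-degrading protease genes 3 fell with HDAC5 shRNA, and none was called with LSD1 shRNA, where 4.92% of all genes were called. All genes named in this paragraph except LOXL1 were named after their values were seen.

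**Figure D4:**
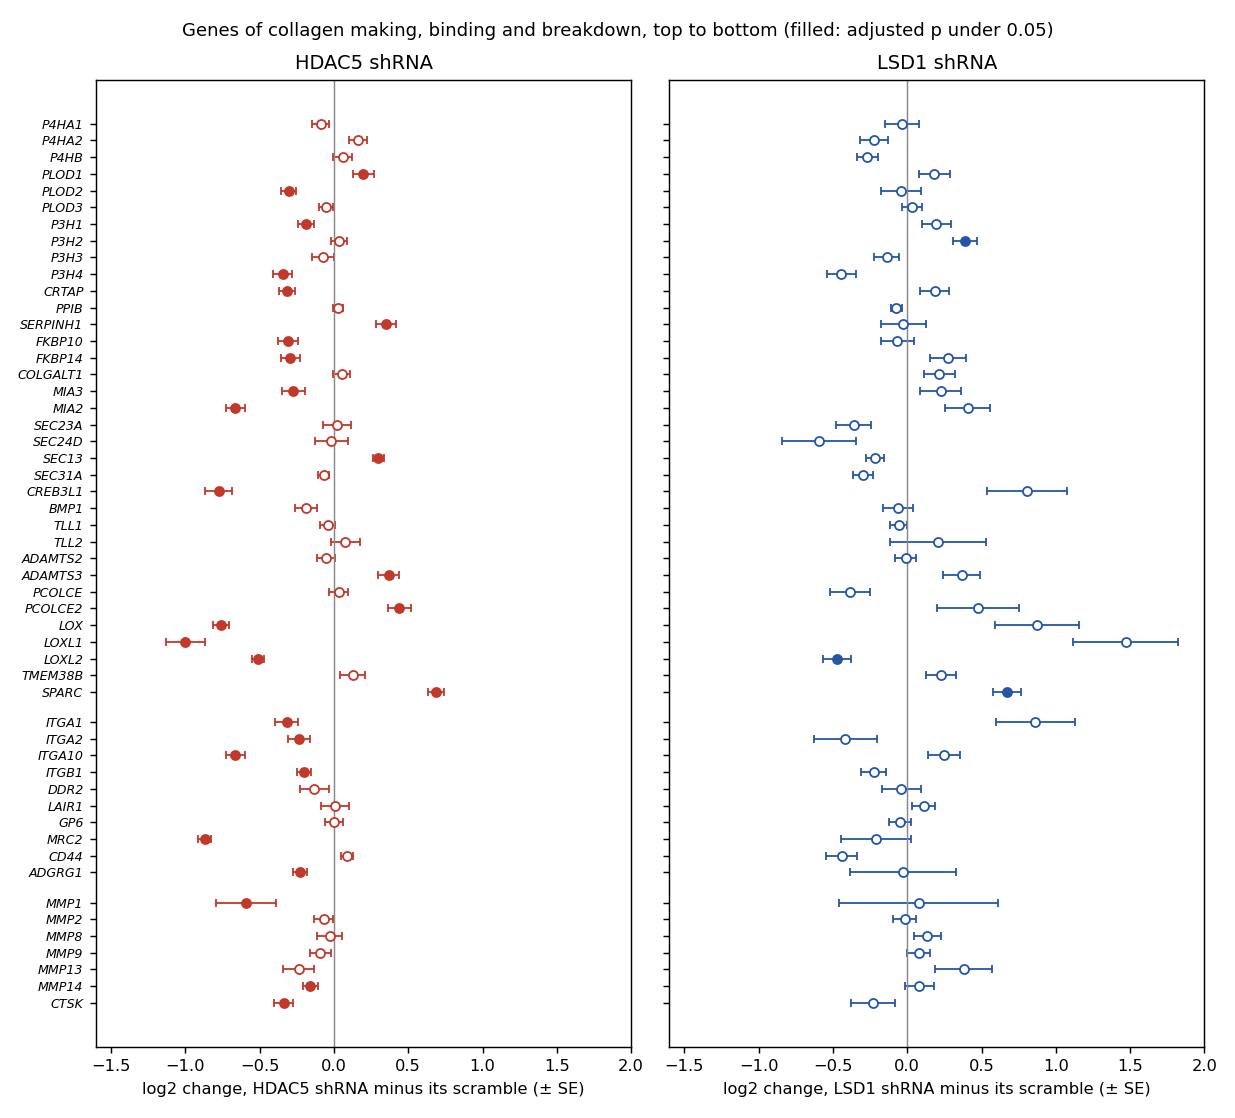
Log2 change (shRNA minus scramble; bars are ± SE from limma, filled points have adjusted p under 0.05) of all measured genes of collagen making, collagen receptors and collagen-degrading proteases, from top to bottom, for HDAC5 shRNA and LSD1 shRNA. LOXL1 and LOX lie below 0 with HDAC5 shRNA, at -1.0 and -0.76, and above 0 with LSD1 shRNA, at 1.47 and 0.87, where they were not called.

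Single arrays weighed on the LSD1 results. Of the 14 members above the lower quartile on all 6 arrays of that experiment, 8 were highest on LSD1 shRNA array 2 and 8 lowest on LSD1 shRNA array 3 among the 3 shRNA arrays. Such an order was not particular to LSD1 shRNA. Of 18 such members in the HDAC5 experiment, 11 were lowest on HDAC5 shRNA array 1 and 9 highest on HDAC5 shRNA array 2. When each array was left out in turn, the number of members called with LSD1 shRNA was 2 without LSD1 shRNA array 1, 5 without array 2 and 2 without array 3. Without scramble A it was 2, without B 3 and without C 1. COL3A1 was called each time, with changes of 6.65 to 7.32. With HDAC5 shRNA the same exercise gave 9 to 12 called members.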

How the data were processed

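RNA of 12 MDA-MB-231 samples was measured on Affymetrix human 3′ arrays of 22277 probe sets. The authors deposited log2 values made with RMA in the affy package, per the submitters' processing notes. The sources used here give neither versions nor whether RMA was run on all arrays at once. RMA by design subtracts background by model and equalises distributions, so low values are compressed and folds of dim genes are understated. Array medians were 6.59 to 6.65 in the HDAC5 experiment and 7.05 to 7.15 in the LSD1 experiment, so levels were compared within an experiment alone.

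The scramble set without an LSD1 tag was taken as the control of HDAC5 shRNA, since the other set carries that tag. Probe sets with 1 symbol (19064; 1043 had several and 2108 none, and 62 were controls) were named through the platform annotation, 19052 of them updated by gene ID to RefSeq GRCh38.p14. Levels of different probe sets were not compared.

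Each shRNA was fitted against its scramble arrays (6 arrays) in limma 3.58.1 (R 4.3.3), using lmFit and trended eBayes, over all 11963 genes with no filter. The fit was tested on simulated data. Exact permutation of 3 against 3 arrays cannot go below p = 0.1 and was not used, and the number of arrays limits precision. What separates the biological replicates is not stated, so p-values measure the spread between these samples.

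Values on every array are given for members called by at least 1.5-fold and for the targets, change and SE for other called members of at least 0.3, further probe sets for each gene printed, and partner genes past 2-fold; other names are said to be chosen later. Members, classes and lists were chosen with earlier results of these data known. Alternatives were quantile normalization, dim genes left out, the mean of probe sets, no trend, 1 fit of all 12 arrays, a 2-fold threshold, a replicate block and each array left out.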

Additional observations from a re-analysis of the deposited data

Results flagged for a closer look

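For 5 members the change with HDAC5 shRNA and the change with LSD1 shRNA differed by a test of the difference itself (limma contrast over 12 arrays, adjusted over 11963 genes). HDAC5 change minus LSD1 change was -6.89 for COL3A1, -1.99 for COL5A2, -0.60 for COL6A3, -0.52 for COL16A1 and -0.41 for COL4A5. In the LSD1 experiment COL6A3 and COL4A5 were dim on every array, which limits what their differences can show. The groups of 3 arrays were too small to be searched for single outlying arrays.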

How the results depend on the processing

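No change or difference that was called reversed its direction under any alternative run, while some small ones that were not called did cross 0, such as the LSD1 changes of COL1A2 (-0.13 to 0.090) and COL7A1 (-0.020 to 0.12) and the difference of COL6A2 (-0.20 to 0.33). With HDAC5 shRNA 9 members were called, and 9 to 11 with quantile normalization, dim genes left out, the mean of probe sets or no trend. In 1 fit of all 12 arrays there were 5, with COL4A1, COL4A2, COL13A1 and COL18A1 lost, and at least 2-fold there were 0. With the replicate number as a block (replicate block) there were 9. Deviations from the group means correlated at -0.05, -0.21 and -0.15 between arrays of the same number. No effect shared by arrays of the same number was thus visible. Whether samples were prepared in numbered pairs cannot be told from these correlations. No paired analysis was possible for LSD1 shRNA because its scramble arrays carry letters. Leaving out each array gave 9 to 12 members with HDAC5 shRNA, 1 to 5 with LSD1 shRNA and 4 to 6 for the difference between them. With LSD1 shRNA 4 members were called, and 7 in 1 fit of all 12 arrays, which added COL6A1, COL13A1 and COL18A1; the LSD1 arrays vary more, and that fit shares 1 spread. The difference of COL4A5 was lost in 4 of the 12 fits with an array left out (adjusted p = 0.051 to 0.057). COL3A1 was called with LSD1 shRNA under all alternatives (4.65 to 7.32). Low signal limits the members that were dim on all arrays of an experiment, 12 in each experiment, of which 9 were the same.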
